A study of Gorilla gorilla gorilla with 14 samples.

Results

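Basal intermediate progenitors (bIP) were compared with apical radial glia (aRG) in cerebral organoids of gorilla, a cultured model of early brain tissue grown from pluripotent cells. All libraries labelled as either cell type were taken, 5 of bIP and 3 of aRG, which are 8 of the 14 libraries of the series. Both were grown from GC1, a line of induced pluripotent stem cells, and were isolated by fluorescence-activated sorting at week 8 of culture, so 1 line stands for the species, and the labels name no treatment and no genetic change in either group. The labels do not name the sorting markers of bIP and aRG, while the neurons' label names BCL11B. The other 6 libraries were of basal radial glia (bRG, n = 2) and neurons (N, n = 4) of the same organoids. They entered the fit and shared in its scaling, its filter, its term for library series and its estimate of the spread between libraries. Their levels are given where they place a bIP value.

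Apical radial glia line the ventricle of the developing cortex, are anchored there by a polarised apical junction belt, and divide as stem cells. When a daughter cell is committed to the neuronal lineage it loosens that junction, moves away from the ventricle and becomes an intermediate progenitor, which usually divides to give neurons. The switch is driven in mouse cortex by proneural basic helix-loop-helix factors and by EOMES, while Notch signalling through HES repressors keeps neighbouring radial glia undifferentiated. The comparison asks which promoters and which distal elements, many of which act as enhancers, are more or less open on the neurogenic side of that step. ATAC-seq measures this through a transposase that cuts accessible DNA and tags it for sequencing.

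Counts were available for 204249 regions of a median 858 bp with a position in the gorilla genome build gorGor6. Totals per library ran from 12834983 to 26378687 counts in bIP and from 17586017 to 26660427 counts in aRG. Levels are CPM, the counts scaled to a common library size with TMM factors, and a library's floor of 3 counts lay at 0.114 to 0.208 CPM in bIP and 0.119 to 0.187 CPM in aRG, which covers counting error only. A region is called a promoter when it is listed within 1000 bp of its closest gene and distal when it is farther away. The labels do not say from which point of the gene the distance runs. Promoter regions held 35.6% ± 1.75 of the counts in bIP (SD, n = 5) and 38.5% ± 0.581 in aRG (n = 3). Libraries came in 2 runs of consecutive library numbers, so the fit carried a term for the series. In the first series were bIP replicates 1 to 3 and aRG replicates 1 and 2. The second held bIP replicates 4 and 5 and aRG replicate 3. Both bRG libraries were in the second series, so bRG levels are not matched by series to the aRG means beside them. The labels do not tell whether the libraries within a group were grown and sorted apart, so each p-value is against the spread between these libraries, which may be technical. Because these are bulk samples, fewer cells with an open region and less opening per cell cannot be told apart.

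Accessibility differed between the cell types over a large part of the regions measured. Of 200931 regions tested, 90252 (44.9%) passed an adjusted p of 0.05, with 48276 (24%) higher and 41976 (20.9%) lower in bIP. Most of these differences were at least 2-fold, 38180 regions higher (19%) and 27121 lower (13.5%). Neither direction can be called the larger one, because higher regions made up 53.5% of the calls here and from 45.5% to 55.9% under other scalings, filters and library subsets. For example, DESeq2 size factors gave 44911 higher and 45770 lower regions.

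Distal regions changed more often than promoters. Of 177609 distal regions, 45302 (25.5%) were higher and 37525 (21.1%) lower in bIP, and of 20510 promoter regions 2354 (11.5%) were higher and 3775 (18.4%) lower. The median absolute log2 fold change was 0.68 over distal regions and 0.30 over promoter regions. Promoters were also the stronger sites, with a median level of 13.2 CPM over all libraries, against 1.86 CPM for distal regions. The shares were much alike from 1001 bp to beyond 100000 bp, at 24.8% to 25.9% higher and 20.5% to 21.6% lower. The surplus of lower over higher promoters differed between the library series. The median log2 fold change of promoter regions was -0.25 in the first series and -0.00169 in the second, and the second series alone gave 1339 higher and 1250 lower promoter regions. Promoter directions below are therefore set beside the median of all coding promoters and beside the second series.

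**Figure D1:**
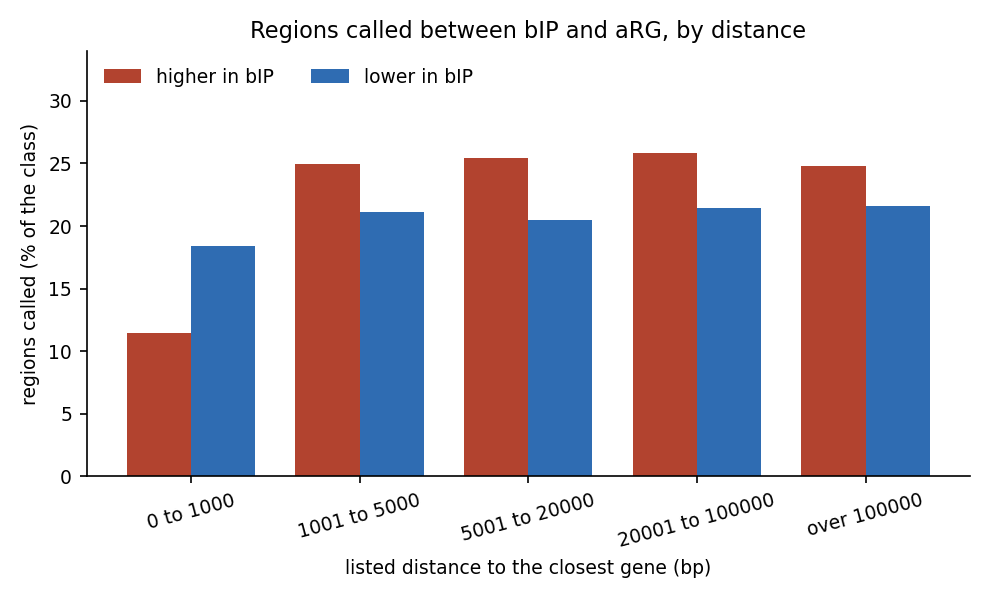
Share of tested regions called higher (red) or lower (blue) in bIP than in aRG at an adjusted p of 0.05, in percent of each class of listed distance to the closest gene in bp. Within 1000 bp, 11.5% were higher and 18.4% lower, while every class beyond that had 24.8% to 25.9% higher and 20.5% to 21.6% lower.

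Over regions called higher in bIP the median level of neurons was near the bIP median. Over regions called lower, the median of basal radial glia was near the aRG median. Such medians do not show how near the levels were at single regions. The median level of distal regions called higher was 3.36 CPM in bIP and 1.02 CPM in aRG, with 3.19 CPM in N and 1.13 CPM in bRG. For distal regions called lower, the medians were 1.70 CPM in bIP and 4.28 CPM in aRG, with 1.22 CPM in N and 3.98 CPM in bRG. Promoters followed the same order. Those called higher had medians of 5.25 CPM in bIP, 1.60 in aRG, 4.85 in N and 1.75 in bRG, and those called lower had 6.005 CPM in bIP, 11.7 in aRG, 4.74 in N and 10.7 in bRG. These medians describe regions chosen by the contrast of bIP and aRG, so the bIP and aRG levels follow from the choice. The N and bRG levels were not contrasted, but their libraries shared the fit, so they are not fully independent of the choice.

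For single genes, 1 promoter region was taken per protein-coding gene, the one with the highest mean count. Of 10099 such promoters, 490 (4.85%) were higher and 1636 (16.2%) lower in bIP, with a median log2 fold change of -0.18. These shares move with the processing: higher promoters numbered 303 without aRG replicate 2, 281 with the closest replicate pairs summed and 1160 with loess scaling. Lower promoters numbered 2456 with loess scaling, 2641 with no filter, 2806 with the 8 bIP and aRG libraries alone, 3167 with a replicate block in place of the series term, and 4049 of 8503 (47.6%) when 10 CPM in 2 libraries was required. The first series alone called 487 higher and 2884 lower coding promoters, and the second alone 255 and 359. Counts of list members below are to be read against these shares, and all adjusted p-values are from edgeR's quasi-likelihood test over all regions.

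Transcription factors that mark intermediate progenitors were mostly more open in bIP where they changed. Of 14 such genes with a measured promoter, 7 were higher in bIP and 1 was lower, and the list's median log2 fold change was 0.80. The second series alone called 7 higher. EOMES, the T-box factor that defines the cell type in mouse and human cortex, has its promoter at chr3:27772174-27776341, which had 77.3, 72.1, 60.1, 95.7 and 110.0 CPM in bIP replicates 1 to 5, against 22.4, 25.7 and 46.4 CPM in aRG replicates 1 to 3. The groups did not overlap, although aRG replicate 3 was well above the other aRG libraries (log2 fold change 1.40 ± 0.17 SE, adjusted p = 2.77e-07). Both bRG libraries were of the second series and averaged 45.8 CPM at the EOMES promoter, near the 46.4 CPM of aRG replicate 3. The N mean was 36.5 CPM, so the EOMES promoter was highest in bIP of the 4 cell types. All 4 distal regions listed with EOMES were higher in bIP, the most changed one 10388 bp away at chr3:27784201-27784754 with 5.94 ± 2.82 CPM in bIP and 0.667 ± 0.608 CPM in aRG (log2 fold change 3.06 ± 0.35 SE, adjusted p = 7.82e-08).

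NHLH1, a neuronal basic helix-loop-helix factor, changed most among these genes. Its promoter at chr1:130988036-130989211 had 31.9, 29.8, 21.2, 30.2 and 35.8 CPM in bIP replicates 1 to 5, against 2.29, 2.37 and 4.61 CPM in aRG replicates 1 to 3, and every bIP library lay above every aRG library (log2 fold change 3.27 ± 0.25 SE, adjusted p = 7.33e-10). The 4 distal regions of NHLH1 were higher as well, up to a log2 fold change of 4.09 ± 0.32 SE, adjusted p = 7.79e-10 at chr1:130986868-130987408. NEUROD1, a proneural factor of the same class that acts downstream of the first commitment step, had 35.3, 33.5, 25.7, 40.5 and 47.3 CPM in bIP replicates 1 to 5, against 10.6, 10.4 and 13.5 CPM in aRG replicates 1 to 3 at the region listed at 0 bp (log2 fold change 1.65 ± 0.22 SE, adjusted p = 1.12e-06). A smaller region 907 bp away changed more, with 9.84, 9.90, 6.80, 12.7 and 13.6 CPM in bIP replicates 1 to 5, against 0.632, 1.06 and 1.67 CPM in aRG replicates 1 to 3 (log2 fold change 3.24 ± 0.26 SE, adjusted p = 1.01e-09). Again no libraries of the groups overlapped, and 4 of the 5 distal regions of NEUROD1 were higher.

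INSM1, a zinc-finger factor that promotes the formation of basal progenitors in mouse, gave a less firm result. Its promoter had 60.2, 58.2, 43.9, 64.9 and 74.2 CPM in bIP replicates 1 to 5, against 38.8, 46.1 and 25.7 CPM in aRG replicates 1 to 3 (log2 fold change 0.70 ± 0.21 SE, adjusted p = 0.00804). The groups overlapped, since aRG replicate 2 exceeded bIP replicate 3. The log2 fold change was 0.37 in the first series and 1.43 in the second, a change between series with an adjusted p of 0.0886, and the call was lost without aRG replicate 3 (adjusted p = 0.186) and without bIP replicate 4 (0.0639). Distal regions of INSM1 were clearer: 17 of 28 were higher and 4 lower. Further factors of the list rose in bIP, namely NHLH2 at 2.42, the PR-domain factor PRDM8 at 1.54 and the proneural factor NEUROD4 at 1.44 log2. NEUROG1, HES6, TFAP2C, SOX4 and ST18 were among those not called, with log2 fold changes from -0.19 to 0.91. ASCL2 was lower, with 3.36 ± 0.735 CPM in bIP and 5.70 ± 1.68 CPM in aRG (log2 fold change -0.76 ± 0.25 SE, adjusted p = 0.0137), but not without aRG replicate 3 (adjusted p = 0.210), and it was highest in N at 18.8 CPM. NEUROG2, the main proneural factor of cortical radial glia in mouse, had no promoter region among those measured, and its only region, 5455 bp away, was lower with 5.29 ± 2.61 CPM in bIP and 12.5 ± 3.50 CPM in aRG (log2 fold change -1.37 ± 0.19 SE, adjusted p = 1.42e-06). Of 90 distal regions listed with these genes, 56 were higher and 13 lower in bIP, against 25.5% and 21.1% of all distal regions.

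**Figure D2:**
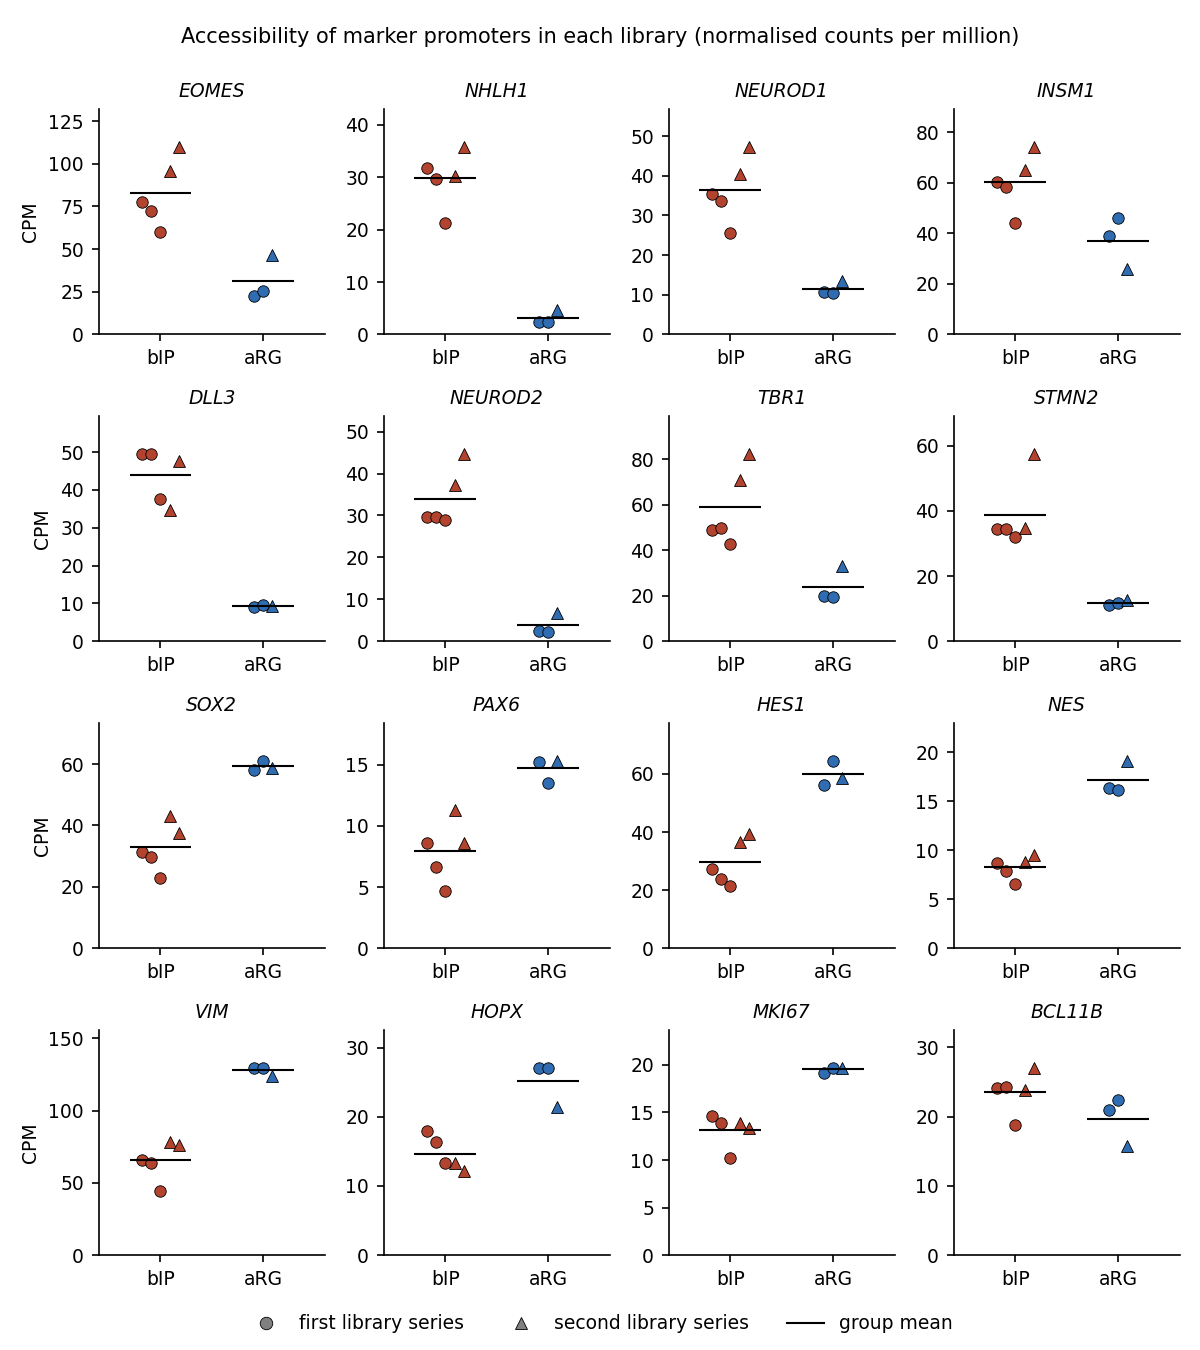
Normalised level (CPM, y axis from 0) at the promoters of 16 marker genes in each bIP library (red, left) and aRG library (blue, right), with circles for the first and triangles for the second library series and a line at each group mean. The 8 genes of the upper rows lie higher in bIP, and of the lower rows all but BCL11B lie lower in bIP, with overlap between the groups only for INSM1 and BCL11B.

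Among other genes reported for intermediate progenitors, 4 of 16 measured promoters were higher and none was lower, and the median log2 fold change was 0.10. The count was 6 without bIP replicate 3 and 2 in the second series alone. TAC3, which encodes the neuropeptide precursor of neurokinin B, led with 10.4, 11.3, 13.6, 13.6 and 16.0 CPM in bIP replicates 1 to 5, against 1.54, 1.50 and 2.94 CPM in aRG replicates 1 to 3 (log2 fold change 2.69 ± 0.22 SE, adjusted p = 1.22e-09). Its bIP values were several times those of any aRG library. NRN1, which encodes the surface protein neuritin, had 35.7 ± 9.44 CPM in bIP and 13.1 ± 2.69 CPM in aRG and a log2 fold change of 1.40 (adjusted p = 1.50e-06). PPP1R17, a phosphatase regulator, had 10.6 ± 1.86 CPM in bIP and 5.23 ± 0.671 CPM in aRG and a log2 fold change of 1.02 (adjusted p = 1.39e-04), and the matricellular gene SMOC1 had one of 0.74 (adjusted p = 0.00267) with overlapping groups. The other 12, among them ELAVL4, GADD45G and PENK, lay between -0.41 and 0.43 log2 and were not called. Of 82 distal regions listed with these genes, 34 were higher and 6 lower in bIP.

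In the Notch pathway, a pair of Delta-like ligands was higher in bIP, and the target repressors that changed were lower. Of 10 measured ligands, receptors and modulators, 2 were higher and 1 lower. DLL3, a Delta-like protein that mostly acts inside the cell against Notch, had 49.5, 49.6, 37.7, 34.8 and 47.8 CPM in bIP replicates 1 to 5, against 8.93, 9.61 and 9.36 CPM in aRG replicates 1 to 3 at chr19:32153740-32155572. The lowest bIP library was well above the highest aRG library (log2 fold change 2.25 ± 0.21 SE, adjusted p = 5.09e-09). DLL4, a membrane ligand, had 17.5 ± 5.35 CPM in bIP and 6.88 ± 0.946 CPM in aRG (log2 fold change 1.29 ± 0.20 SE, adjusted p = 7.31e-06). JAG1, a ligand of the Jagged family, was lower with 36.5 ± 5.35 CPM in bIP and 49.8 ± 3.77 CPM in aRG, but its adjusted p of 0.0286 was above 0.05 when any 1 of bIP replicates 1 to 3 or aRG replicates 1 and 3 was left out. RBPJ, the DNA-binding partner of Notch, was at -0.10 log2 and not called. DLL1 and the receptors NOTCH1, NOTCH2 and NOTCH3 had no measured promoter.

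Of 7 repressors that Notch or BMP signalling induces, 3 were lower and none higher, with a median of -0.52 log2. HES1, the repressor that holds radial glia undifferentiated, had 27.4, 23.7, 21.4, 36.5 and 39.5 CPM in bIP replicates 1 to 5, against 56.2, 64.6 and 58.7 CPM in aRG replicates 1 to 3 at a region listed 717 bp away. The groups were apart, with every bIP library below every aRG library (log2 fold change -1.05 ± 0.18 SE, adjusted p = 2.44e-05). A second region, listed at 0 bp, was lower too, with 9.84 ± 2.02 CPM in bIP and 27.6 ± 1.22 CPM in aRG (log2 fold change -1.50 ± 0.17 SE, adjusted p = 7.36e-08). ID3 and ID1, which block proneural factors by pairing with their partners, were at -0.56 (adjusted p = 0.00795) and -0.52 (adjusted p = 0.0288) log2. The ID1 call was lost when any 1 of bIP replicates 1 to 3 or aRG replicates 2 and 3 was left out, each of which leaves 2 lower targets. The count of lower targets was 5 without bIP replicate 4 and 0 in the second series alone, where HES1 was at -0.63 log2. Distal regions of these genes were lower far more often than higher, with 14 of 26 lower and 1 higher. HES5 had no region in the table.

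Radial glia transcription factors were less open in bIP where they changed. Of 21 measured promoters, 11 were lower and none was higher, with a median of -0.48 log2, beside 16.2% lower among all coding promoters. In the second series alone 2 were lower and the median was -0.17. SOX2, the neural stem cell factor, had 31.3, 29.6, 23.0, 43.2 and 37.5 CPM in bIP replicates 1 to 5, against 58.1, 61.1 and 58.7 CPM in aRG replicates 1 to 3 at chr3:178123597-178125650. All bIP libraries were below all aRG libraries, with the second-series bIP libraries the closest to aRG (log2 fold change -0.90 ± 0.16 SE, adjusted p = 5.02e-05). A distal region of SOX2 3156 bp away changed more, with 7.76 ± 2.12 CPM in bIP and 34.6 ± 4.74 CPM in aRG (log2 fold change -2.13 ± 0.22 SE, adjusted p = 1.77e-08), while a neighbouring region 371 bp from SOX2 was higher in bIP (14.8 ± 3.33 CPM in bIP and 9.40 ± 1.48 CPM in aRG, log2 fold change 0.63 ± 0.19 SE, adjusted p = 0.00795). So single elements of this gene moved in opposite directions. PAX6, the homeodomain factor of cortical radial glia, had 8.63, 6.67, 4.72, 11.3 and 8.60 CPM in bIP replicates 1 to 5, against 15.3, 13.5 and 15.3 CPM in aRG replicates 1 to 3 at the region listed at 0 bp (log2 fold change -0.92 ± 0.20 SE, adjusted p = 3.70e-04). The groups did not overlap, yet a region of PAX6 499 bp away was nearly level, at 8.80 ± 2.71 CPM in bIP and 8.85 ± 0.614 CPM in aRG. Of 14 distal regions of PAX6, 6 were lower and 1 higher.

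Larger log2 fold changes than those of SOX2 and PAX6 were found at RAX, an eye-field homeodomain factor, at -1.60 (adjusted p = 8.63e-05), and SALL3, a zinc-finger repressor, at -1.15 (adjusted p = 5.20e-05). SOX21, TCF7L1 and GLI3, the last a Hedgehog-pathway repressor of the cortex, were lower at -0.78, -0.74 and -0.53 log2. The regional factors EMX1, EMX2, LHX2, OTX1 and NR2E1 and the glial factor SOX9 were not called, with log2 fold changes from -0.23 to -0.05. Of 130 distal regions listed with these genes, 23 were higher and 54 lower in bIP.

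Genes for the radial glia cell body were also lower where they changed. Of 18 measured promoters of structural and metabolic genes, 10 were lower and none was higher, with a median of -0.58 log2, and 2 were lower in the second series alone. NES, the intermediate filament nestin, had 8.66, 7.90, 6.59, 8.80 and 9.47 CPM in bIP replicates 1 to 5, against 16.3, 16.1 and 19.1 CPM in aRG replicates 1 to 3 (log2 fold change -1.06 ± 0.16 SE, adjusted p = 7.24e-06). VIM, the filament vimentin, had 65.9, 64.0, 44.6, 78.1 and 76.2 CPM in bIP replicates 1 to 5, against 129.7, 129 and 124 CPM in aRG replicates 1 to 3 (log2 fold change -0.98 ± 0.17 SE, adjusted p = 3.92e-05). In both the groups were apart, and the within-series log2 fold changes were -1.04 and -1.07 for NES and -1.14 and -0.69 for VIM. BCAN, a matrix proteoglycan, was at -1.17 (adjusted p = 7.12e-06), PROM1, a protein of apical membrane protrusions, at -0.94 (adjusted p = 1.37e-05) and GFAP at -0.89 (adjusted p = 0.00262) log2. PTPRZ1, GLUL, CLU and CDH2 were not called.

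Most genes used as markers of basal radial glia were lower in bIP than in aRG. This held for 9 of 12 measured promoters, with a median of -0.74 log2 and 4 of them called in the second series alone. SLCO1C1, a thyroid hormone transporter, had 1.89, 2.59, 2.08, 1.50 and 1.16 CPM in bIP replicates 1 to 5, against 10.4, 10.5 and 8.43 CPM in aRG replicates 1 to 3. Its aRG level was several times its bIP level in every library (log2 fold change -2.40 ± 0.23 SE, adjusted p = 8.80e-09). ACSBG1, a fatty acyl-CoA synthetase, had 1.31 ± 0.609 CPM in bIP and 5.79 ± 2.59 CPM in aRG (log2 fold change -2.09 ± 0.27 SE, adjusted p = 6.06e-07), and FAM107A, an actin-associated protein, had 5.88 ± 0.466 CPM in bIP and 17.1 ± 1.96 CPM in aRG (log2 fold change -1.54 ± 0.19 SE, adjusted p = 2.11e-07). HOPX, a homeodomain protein without DNA-binding ability, had 17.9, 16.3, 13.3, 13.3 and 12.2 CPM in bIP replicates 1 to 5, against 27.1, 27.1 and 21.4 CPM in aRG replicates 1 to 3 (log2 fold change -0.78 ± 0.19 SE, adjusted p = 0.00180), with no overlap. The integrin subunit ITGB5 was at -1.04 (adjusted p = 2.21e-05). In the bRG libraries themselves SLCO1C1 averaged 8.91 CPM, FAM107A 15.7 CPM and HOPX 20.9 CPM, near the aRG means of 9.76, 17.1 and 25.2 CPM. These promoters had 8.43, 18.7 and 21.4 CPM in aRG replicate 3, of the same series as both bRG libraries. MT3, FABP5 and STAT3 were not called. Distal regions of these genes changed about as often as distal regions in general. Of 107 listed with these genes, 27 (25.2%) were higher and 26 (24.3%) lower in bIP, against 25.5% and 21.1% of all distal regions.

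Genes of the apical junction and of delamination were mixed. Of 16 measured promoters, 6 were lower and 1 was higher, with a median of -0.17 log2, close to that of all coding promoters, and none was called in the second series alone. Without aRG replicate 1 the lower count was 3. CRB2, a membrane organiser of the apical domain, had 28.3, 27.6, 22.3, 36.0 and 36.6 CPM in bIP replicates 1 to 5, against 64.9, 67.1 and 54.8 CPM in aRG replicates 1 to 3. Every bIP library was below every aRG library (log2 fold change -1.08 ± 0.16 SE, adjusted p = 5.86e-06), and the fold change was -0.59 log2 in the second series. The polarity scaffolds PARD3 and PARD3B were at -0.46 (adjusted p = 0.0214) and -0.52 (adjusted p = 0.0128), and the adherens junction protein PLEKHA7 at -0.51 (adjusted p = 0.0162) log2. Of the zinc-finger repressors tied to delamination in mouse, SNAI2 was lower at -0.63 (adjusted p = 0.00355) and SCRT1 higher at 0.61 (adjusted p = 0.0223). The SCRT1 call was lost under several settings, with DESeq2 at an adjusted p of 0.0668 and without aRG replicate 2 at 0.156. AKNA, a centrosomal protein that promotes delamination in mouse, was at 0.45 (adjusted p = 0.0782) and not called.

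Signalling genes that act in radial glia were lower where they changed. Of 7 measured YAP and TEAD pathway genes, 4 were lower: the Hippo kinase LATS2 at -1.15 (adjusted p = 9.56e-06), the YAP target CCN1 at -1.08 (adjusted p = 1.09e-05), and the DNA-binding partners TEAD4 at -0.81 (adjusted p = 3.44e-04) and TEAD3 at -0.53 (adjusted p = 0.00986). In CCN1 the levels were 22.9 ± 3.91 CPM in bIP and 48.5 ± 1.24 CPM in aRG. LATS2 and CCN1 were the 2 that the second series called. Of 25 measured WNT, FGF and SHH genes, 11 were lower and none was higher, with a median of -0.37 log2. They included the secreted WNT antagonist SFRP2 at -0.999 (adjusted p = 7.51e-05), the receptors FGFR2 at -0.86 (adjusted p = 6.40e-05) and FGFR1 at -0.69 (adjusted p = 5.73e-04), the Hedgehog transducer SMO at -0.68 (adjusted p = 8.07e-04) and the WNT feedback gene AXIN2 at -0.60 (adjusted p = 0.00309). The second series alone called none of these 25, with a median of -0.22 log2.

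Promoters of cortical excitatory neuron factors changed in both directions. Of 27 measured, 7 were higher and 7 lower, with a median of -0.03 log2, and the second series alone called 5 and 1. NEUROD2, a basic helix-loop-helix factor of young excitatory neurons, had 29.7, 29.7, 28.9, 37.2 and 44.7 CPM in bIP replicates 1 to 5, against 2.57, 2.31 and 6.86 CPM in aRG replicates 1 to 3 at chr5:42347377-42348903 (log2 fold change 3.13 ± 0.28 SE, adjusted p = 2.57e-09). The bIP libraries were several times above all aRG libraries, and the N mean was 38.6 CPM. All 7 distal regions listed with NEUROD2 were higher too, but distal regions of the whole list did not lean that way. Of 302, 76 (25.2%) were higher and 87 (28.8%) lower in bIP, against 25.5% and 21.1% of all distal regions. MYT1L, a zinc-finger repressor of non-neuronal genes, had 45.2, 40.1, 35.6, 49.5 and 58.0 CPM in bIP replicates 1 to 5, against 6.21, 5.74 and 8.24 CPM in aRG replicates 1 to 3, with no overlap (log2 fold change 2.74 ± 0.21 SE, adjusted p = 5.88e-10). TBR1, the T-box factor that follows EOMES, had 49.1, 49.9, 42.9, 70.8 and 82.4 CPM in bIP replicates 1 to 5, against 19.8, 19.4 and 32.9 CPM in aRG replicates 1 to 3 (log2 fold change 1.27 ± 0.19 SE, adjusted p = 4.56e-06). Here bIP replicates 4 and 5 and aRG replicate 3, all of the second series, were each the highest of their group. A distal region 1403 bp from TBR1 had 23.6 ± 6.19 CPM in bIP and 4.01 ± 3.21 CPM in aRG (log2 fold change 2.62 ± 0.24 SE, adjusted p = 3.89e-09) and 4.04 CPM in N, below the bIP level.

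NEUROD6 and BHLHE22, of the same helix-loop-helix class, were at 1.50 (adjusted p = 1.61e-07) and 1.86 (adjusted p = 3.33e-08) log2. The lower promoters included LMO3, a transcriptional cofactor, with 26.6 ± 4.40 CPM in bIP and 80.1 ± 11.0 CPM in aRG (log2 fold change -1.59 ± 0.18 SE, adjusted p = 4.87e-08), the layer 5 determinant FEZF2 at -0.71 (adjusted p = 5.90e-04), FOXP1 at -0.62 (adjusted p = 0.00133) and NFIA, a factor also of glial development, at -0.54 (adjusted p = 0.00719). Of these only LMO3 was called in the second series alone. MEF2C was near the detection floor, at 0.322 ± 0.150 CPM in bIP and 0.713 ± 0.410 CPM in aRG, and its call was lost when any 1 of bIP replicates 1, 3 and 5 or aRG replicates 2 and 3 was left out. BCL11B, which is named in the neurons' label, had 24.1, 24.3, 18.7, 23.9 and 27.1 CPM in bIP replicates 1 to 5, against 20.9, 22.4 and 15.7 CPM in aRG replicates 1 to 3. The groups overlapped and it was not called (log2 fold change 0.29 ± 0.18 SE, adjusted p = 0.216), although loess scaling gave an adjusted p of 0.00375. The 4 called distal regions of BCL11B were higher in bIP, the nearest 3803 bp away with 8.24 ± 1.00 CPM in bIP and 1.32 ± 0.332 CPM in aRG (log2 fold change 2.62 ± 0.25 SE, adjusted p = 5.03e-09), above the N level of 2.92 CPM.

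Neuronal effector genes that changed were higher in bIP. Of 28 cytoskeleton and axon genes 7 were higher and none lower, and of 23 synapse and excitability genes 6 were higher and none lower, against 4.85% of all coding promoters. The medians were 0.05 and 0.27 log2, and the second series alone called 4 and 3. STMN2, a microtubule regulator of growing axons, had 34.5, 34.6, 32.0, 34.6 and 57.5 CPM in bIP replicates 1 to 5, against 11.1, 11.7 and 12.7 CPM in aRG replicates 1 to 3. The groups were apart, with bIP replicate 5 far above the other bIP libraries (log2 fold change 1.68 ± 0.20 SE, adjusted p = 1.25e-07). The axon guidance receptor DCC was at 1.07 (adjusted p = 2.76e-05), the guidance ligand SEMA3C at 1.14 (adjusted p = 2.77e-04) and the kinesin KIF21B at 1.08 (adjusted p = 2.63e-05). SCG3, a secretory granule protein, had 18.2 ± 1.43 CPM in bIP and 5.94 ± 0.817 CPM in aRG (log2 fold change 1.62 ± 0.19 SE, adjusted p = 1.87e-07), and GRIA2, an AMPA receptor subunit, had 31.0 ± 8.99 CPM in bIP and 15.5 ± 1.74 CPM in aRG (log2 fold change 0.97 ± 0.21 SE, adjusted p = 3.48e-04). RBFOX3, the splicing factor known as NeuN, was higher from a low base, with 1.95 ± 0.466 CPM in bIP and 0.520 ± 0.101 CPM in aRG (log2 fold change 1.87 ± 0.33 SE, adjusted p = 3.75e-05). MAP2, TUBB3, MAPT, SYT1 and SNAP25 were not called, at 0.27, 0.05, 0.07, 0.14 and 0.27 log2. Of 299 distal regions of the synapse list, 112 (37.5%) were higher and 40 (13.4%) lower in bIP. The cytoskeleton and axon list had 102 (30.4%) higher and 65 (19.3%) lower of 336. Over all distal regions the shares were 25.5% and 21.1%. Neurons are a cell type that the bIP gate could also hold, and the summed promoter level of the synapse list was 561 to 868 CPM in bIP libraries and 615 to 659.6 CPM in aRG libraries, with 521 to 799 CPM in N. Its part in these results was not tested.

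Cell cycle promoters were lower where they were called. Of 30 measured, 11 were lower in bIP and none higher, with a median of -0.37 log2 beside -0.18 for all coding promoters. The count was 19 without bIP replicate 4 and 4 in the second series alone. CCND1, the G1 cyclin of radial glia, had 12.1, 11.2, 8.81, 11.4 and 12.8 CPM in bIP replicates 1 to 5, against 20.5, 23.0 and 23.0 CPM in aRG replicates 1 to 3 (log2 fold change -0.97 ± 0.17 SE, adjusted p = 2.94e-05). MKI67, the proliferation marker Ki-67, had 14.6, 13.9, 10.2, 13.9 and 13.4 CPM in bIP replicates 1 to 5, against 19.1, 19.7 and 19.7 CPM in aRG replicates 1 to 3 (log2 fold change -0.56 ± 0.17 SE, adjusted p = 0.00918). For both, every bIP library was below every aRG library, and the MKI67 promoter was at -0.53 log2 in the second series alone, where it was not called. The mitotic kinases PLK1 and AURKB were at -0.97 (adjusted p = 3.42e-05) and -0.88 (adjusted p = 2.42e-04), and the nucleotide synthesis gene TYMS at -0.84 (adjusted p = 2.52e-04) log2. PCNA, CCNE1, CCND2 and CDKN2C differed by less, from -0.16 to 0.05 log2, and were not called.

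Markers of other cell types that changed were mostly lower in bIP, but so were changed coding promoters as a whole. Of all coding promoters, 4.85% were higher and 16.2% lower. Of 13 choroid plexus and cortical hem promoters 6 were lower, led by KCNJ13, a potassium channel of the choroid plexus, with 1.35 ± 0.390 CPM in bIP and 7.96 ± 0.822 CPM in aRG (log2 fold change -2.55 ± 0.25 SE, adjusted p = 1.01e-08), and the list summed to 88.7 to 124 CPM in bIP libraries and 142 to 172 CPM in aRG libraries. The choroid plexus marker TTR had no measured promoter. Of 10 mesenchyme promoters 6 were lower, among them FOXC2 at -1.44 (adjusted p = 9.54e-06) and COL1A1 at -0.89 (adjusted p = 6.42e-05), with a sum of 80.6 to 129.7 CPM in bIP libraries and 134 to 147 CPM in aRG libraries. Of 8 oligodendrocyte and astrocyte promoters 4 were lower, among them the water channel AQP4 at -1.46 (adjusted p = 2.50e-04) and S100B at -1.12 (adjusted p = 1.66e-04), and OLIG2 was higher at 0.46 (adjusted p = 0.0371), a call that DESeq2 did not make (adjusted p = 0.0667). Of 18 GABAergic lineage promoters 2 were higher, the vesicular transporter SLC32A1 at 1.15 (adjusted p = 1.38e-04) and the synthesis enzyme GAD1 at 0.55 (adjusted p = 0.00703), and 3 lower, among them the ganglionic eminence factor GSX1 at -1.94 (adjusted p = 6.84e-08). The GAD1 call was lost without bIP replicate 4 (adjusted p = 0.0676), without aRG replicate 2 (0.121) and in the second series alone (0.138). The lower share of that list, 16.7%, was near that of all coding promoters, and its lower count was 6 without bIP replicate 4. Endothelial and immune promoters were low throughout, summing to 14.2 to 16.8 CPM in bIP libraries and 22.8 to 28.1 CPM in aRG libraries, and 3 of 5 were lower, a count of 1 without aRG replicate 1, without aRG replicate 3 or without bIP replicate 1. PECAM1, CDH5 and PTPRC, which define these cells, had no measured promoter. LIN28A, an RNA-binding protein of early cells, was higher from a low level, with 2.06 ± 0.617 CPM in bIP and 0.653 ± 0.201 CPM in aRG (log2 fold change 1.63 ± 0.34 SE, adjusted p = 2.47e-04), and the other two measured genes of the pluripotent list were not called. In the second series alone, lower promoters numbered 3 of 13 for choroid plexus and hem, 1 of 10 for mesenchyme, where COL1A1 was not called (adjusted p = 0.0785), 2 of 8 for oligodendrocytes and astrocytes, 2 of 18 for the GABAergic list and 1 of 5 for endothelial and immune cells. Distal regions of these lists are set beside 25.5% higher and 21.1% lower over all distal regions. For oligodendrocytes and astrocytes 13 were higher and 4 lower of 28, against the direction of the promoters. Endothelial and immune genes had 6 higher and 4 lower of 20, and pluripotent genes 0 higher and 7 lower of 13. Choroid plexus and hem had 10 higher and 26 lower of 80, mesenchyme 11 and 23 of 64 and the GABAergic list 11 and 18 of 77. Housekeeping promoters were not called in any of 6 cases, and their median was -0.21 log2. That depended on the processing: 5 of 6 were lower when 10 CPM in 2 libraries was required, and 4 of 6 with a replicate block in place of the series term. The part of any of these cell types in the differences above was not tested.

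**Figure D3:**
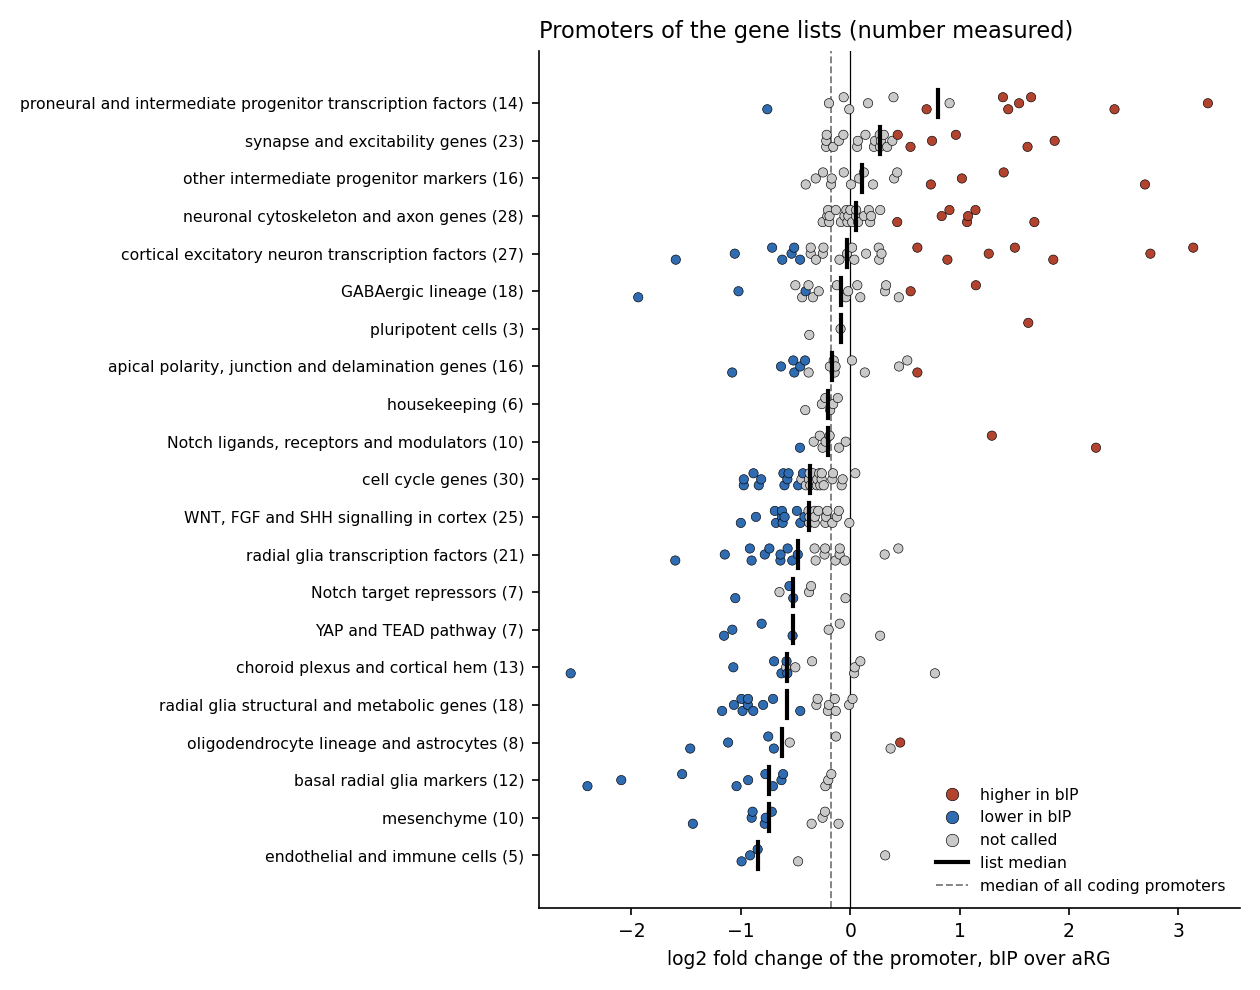
Log2 fold change of promoter accessibility, bIP over aRG (x axis), for every measured member of the gene lists (rows, ordered by the list median, number measured in parentheses). Points are red when called higher, blue when called lower and grey when not called, black bars are list medians, and the dashed line is the median of all coding promoters at -0.18. Proneural and intermediate progenitor factors have the highest median, 0.80, and radial glia, mesenchyme and basal radial glia lists lie to the left.

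Beyond the lists, the promoters with the smallest p among those changed at least 2-fold without overlap between the groups included genes of diverse function. Of all coding promoters, 497 (4.92%) were higher and 2201 (21.8%) lower without overlap of library values. Besides MYT1L, NHLH1, NEUROD1, NEUROD2 and TAC3, the 12 highest ranked on the bIP side held SLC5A10, a sodium-coupled sugar transporter, with 23.3 ± 7.38 CPM in bIP and 1.70 ± 0.950 CPM in aRG, and RBP3, the retinoid-binding protein of photoreceptors, with 15.2 ± 3.51 CPM in bIP and 1.02 ± 0.473 CPM in aRG. They also held EIF4E1B, a cap-binding protein known from oocytes, with 19.6 ± 3.46 CPM in bIP and 1.74 ± 1.29 CPM in aRG, and NPPA, the atrial natriuretic peptide precursor, with 24.1 ± 4.46 CPM in bIP and 2.71 ± 1.01 CPM in aRG. The log2 fold changes of these 4 were 3.76, 3.89, 3.52 and 3.15. The other 3 were ZDHHC22 at 3.03, COLEC12 at 3.33 and CWH43 at 2.82. COLEC12, a scavenger receptor, had 8.80 ± 3.51 CPM in bIP and 0.795 ± 0.327 CPM in aRG and 2.80 CPM in N. On the aRG side, the epithelial junction and lipoprotein receptor gene LSR changed most, with 0.579 ± 0.195 CPM in bIP and 6.81 ± 2.34 CPM in aRG (log2 fold change -3.60 ± 0.35 SE, adjusted p = 7.24e-09). TXK, a Tec-family kinase best known from T cells, had 2.51 ± 1.20 CPM in bIP and 20.6 ± 6.72 CPM in aRG, GCM1, a factor best known from placenta, had 1.05 ± 0.250 CPM in bIP and 7.03 ± 0.255 CPM in aRG, and BBOX1, which makes carnitine, had 2.97 ± 0.816 CPM in bIP and 17.3 ± 1.86 CPM in aRG. A2ML1, KBTBD12, SLFN12, ERMN, ANGPTL1, OR5A2, SLCO1C1 and KCNJ13 completed this side, at -2.73 to -2.13 log2.

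The distal regions with the smallest p included elements far from any listed gene. On the bIP side the first was 73752 bp from LINC02264 at chr4:115608815-115610031 (24.1, 22.7, 20.8, 25.9 and 26.4 CPM in bIP replicates 1 to 5, against 1.38, 1.31 and 2.45 CPM in aRG replicates 1 to 3), with a log2 fold change of 3.80 and 3.64 CPM in N. The others lay 1716 bp from FDX1P2, 17616 bp from RNF144A-AS1, 5510 bp from RPL30P4 and 23745 bp from LINC00494, at 3.65, 3.43, 4.03 and 3.92 log2. Their means were 20.4, 36.3, 18.9 and 18.6 CPM in bIP and 8.75, 8.11, 3.24 and 10.9 CPM in N. On the aRG side the first was 7135 bp from MIR3938 at chr3:55759059-55761177 (7.45, 7.18, 6.73, 5.83 and 3.09 CPM in bIP replicates 1 to 5, against 53.0, 60.3 and 39.9 CPM in aRG replicates 1 to 3), with a log2 fold change of -3.05. The others lay 33663 bp from SMC4P1, 128666 bp from NTM-IT, 12471 bp from MIR1273H and 48984 bp from AC090541.1, at -3.01, -3.29, -3.65 and -3.24 log2. The gene names are those listed as closest and say nothing of which gene a region acts on. No bIP library overlapped an aRG library at these regions, by the rule that chose them.

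Changed distal regions were also counted by gene. AUTS2, a neurodevelopmental gene, had the most in both directions, with 37 higher and 40 lower of 126 distal regions, so elements of opposite behaviour lie in 1 locus. The largest differences there were 9.46 ± 5.43 CPM in bIP and 0.976 ± 0.650 CPM in aRG at chr7:64361938-64362648 (log2 fold change 3.18 ± 0.42 SE, adjusted p = 6.65e-07) and 0.741 ± 0.313 CPM in bIP and 4.72 ± 0.596 CPM in aRG at chr7:64270315-64270620 (log2 fold change -2.62 ± 0.31 SE, adjusted p = 1.46e-07). The AUTS2 promoter was not called, at -0.18 log2. NAA11, an N-terminal acetyltransferase gene, had 24 higher and 0 lower of 30 distal regions, and their median was 1.97 log2. RBFOX3 had 23 higher and 0 lower of 37, KCNN3, a calcium-activated potassium channel, 20 higher and 1 lower of 29, SARDH, a sarcosine-metabolising enzyme, 20 higher and 1 lower of 26, and CACNA2D1, a calcium channel subunit, 20 higher and 3 lower of 45. The KCNN3 promoter itself was lower in bIP, with 42.0 ± 8.82 CPM in bIP and 56.4 ± 2.89 CPM in aRG (log2 fold change -0.45, adjusted p = 0.0449), against the direction of its distal regions. On the aRG side, NFIA had 3 higher and 20 lower of 33, the orphan nuclear receptor gene ESRRG 6 higher and 20 lower of 41, FOXC1, a forkhead factor of mesenchyme and meninges, 5 higher and 18 lower of 34, the adhesion gene ALCAM 1 higher and 18 lower of 35 and the junction gene CTNND2 14 higher and 18 lower of 65. Long loci hold more regions, so these counts also depend on locus length. Over all distal regions 25.5% were higher and 21.1% lower. A locus with many regions can therefore hold calls in both directions, as AUTS2 and CTNND2 did, whereas NAA11 and RBFOX3 held none that were lower.

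**Figure D4:**
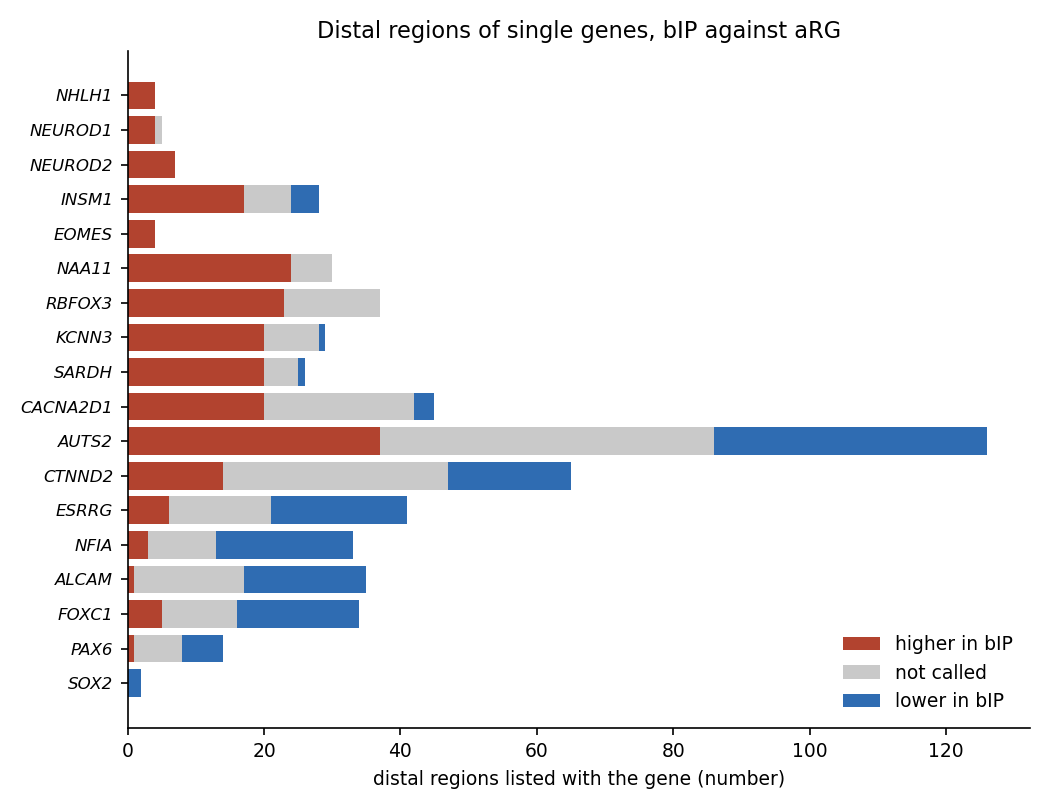
Number of distal regions listed with each gene (x axis) that were higher in bIP (red), not called (grey) or lower in bIP (blue), for marker genes and for the genes with the most called regions. All 7 distal regions of NEUROD2 and all 4 of EOMES and of NHLH1 are higher, none of the 30 near NAA11 and 37 near RBFOX3 is lower, and AUTS2 holds 37 higher and 40 lower among 126.

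Promoter and distal changes of the same gene went together in part. The 403 genes with a higher promoter and distal regions had 2461 of these, of which 44.8% were higher and 10.4% lower in bIP. The 1293 genes with a lower promoter had 7069, of which 18.8% were higher and 27.8% lower. Where the promoter was not called (5391 genes, 24223 distal regions), 26.2% were higher and 18.9% lower. The genes are assigned by proximity only, and promoter and distal counts come from the same libraries.

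The consensus peak sets that the authors deposited for each cell type were set against the called regions, counting any overlap of positions. Their genome build is not stated, and 15.9% of the 183679 tested regions on chromosomes that the sets cover started exactly at a peak start. Of distal regions called higher, 45.9% were touched by a bIP peak only, 0.388% by an aRG peak only and 13.9% by both. Of distal regions called lower, 0.350% were touched by a bIP peak only, 51.7% by an aRG peak only and 23.0% by both. Among distal regions not called the shares were 3.99%, 6.58% and 18.6%. Neither set touched 39.8% of the distal regions called higher, 25.0% of those called lower and 70.8% of those not called. Of promoter regions called lower, 28.1% were in the aRG set only and 59.1% in both sets, so most of these were open in both cell types at different levels. The peak sets come from the same libraries and are no independent evidence, and there is 1 set per cell type (169628 bIP and 162271 aRG peaks), with no replicates.

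Fitted alone, the library series differed in how many regions passed. The first series (3 bIP, 2 aRG libraries) called 51279 regions higher and 44934 lower, and the second (2 bIP, 1 aRG), in which the single aRG library is assumed to vary like the others, 27670 and 21811. Of the regions called in the first series, 94.5% had the same sign in the second, beside 77.8% of all 192273 regions fitted in both. Over promoter regions, called or not, 66.7% had the same sign. The change of the difference between series was tested in 188897 regions and passed an adjusted p of 0.05 in 513 of them (0.272%). The 34 promoters and distal regions named for their p-values were called in each series, but they were chosen on the libraries of both, without overlap, which fixes their direction within each series. Of the 82 additional list members named, 39 were called in the second series and 79 of the 81 that could be fitted in the first. These members too were mostly named for being called over both series, so the agreement of their signs is no check of the result.

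**Figure D5:**
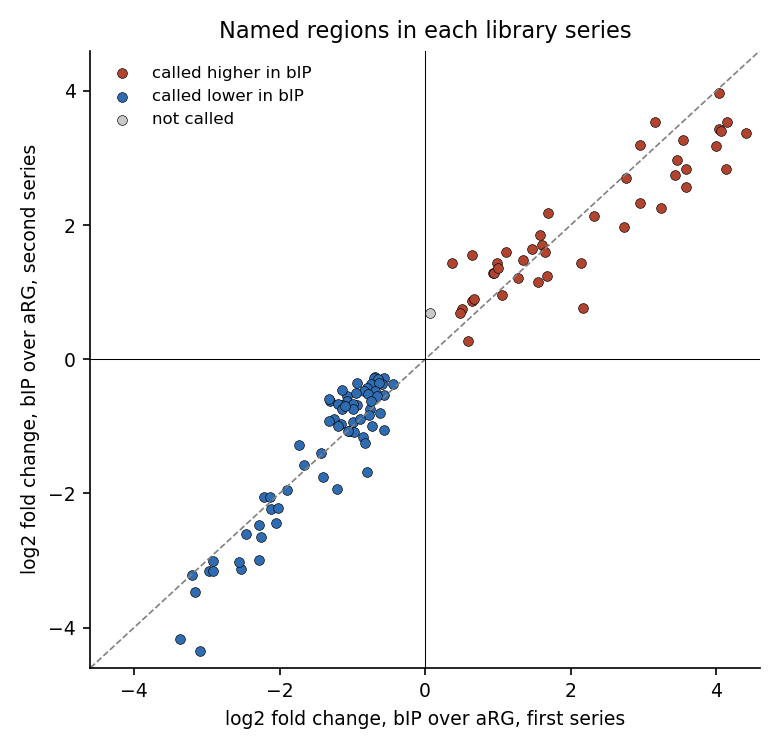
Log2 fold change, bIP over aRG, of the named promoters and distal regions in the first library series (x axis) and the second (y axis), each fitted alone. Red points were called higher and blue points lower over both series, and the dashed line marks equal values. The points were chosen on the libraries of both series, which largely fixes that each lies on the same side of 0 in both. HES1, at -1.30 in the first series and -0.63 in the second, is an example of a decrease nearer to 0 in the second.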

How the data were processed

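ATAC-seq read counts per region and library were used as the authors deposited them. The tools named in the submitters' processing notes are bcl2fastq 2.20.0 and MACS2, and the builds are hg38 and panTro6. Regions of the count table carry gorGor6 positions as well. No aligner or read counter is given in the sources used here. Per the labels' protocols, nuclei were handled as for fixed cells, with overnight reversal of crosslinks, and fragments were selected by size, which can shift the balance between short and long fragments. The deposited peak sets hold 1 consensus list per cell type with a score, a fold enrichment and −log10 p and q values in the usual narrowPeak columns. Peak positions were used, and the q-value only for a stricter alternative, and the build of the peak sets is not stated.

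Of 218080 regions, 13823 without a gorilla position (all counts 0) and 8 repeats were left out. The other 204249 were fitted with edgeR 4.0.16 in R 4.3.3 (TMM scaling, filterByExpr on groups, quasi-likelihood test). All 14 libraries entered with cell type and library series as terms, which left 9 residual degrees of freedom. The contrast was bIP minus aRG, with Benjamini-Hochberg adjustment over 200931 regions and a threshold of 0.05. Per-library totals and the floors they give stand in the report. Replicate pairs were compared by chi-square, and no pair was merged, although aRG replicates 1 and 2 (1.07 per degree of freedom) and bIP replicates 1 and 2 (1.10) were the closest. An alternative with these closest pairs summed was run. The script was tested on simulated data.

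The members and gene lists were chosen with earlier results of these data known. Named promoters were the 12 higher and 12 lower with the smallest p among coding promoters past the threshold, changed by at least 1 log2 unit, without overlap between groups. Distal regions were named by the same rule (5 each way), as were the 6 loci each way with the most called distal regions, up to 4 called members per list and direction, and a fixed set of markers. Other members in the text were named after their values were seen. Alternatives were other scalings, filters and tools, the series alone, a replicate block and each library left out. Regulatory sequence and motifs were not analysed here.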

Additional observations from a re-analysis of the deposited data

Results flagged for a closer look

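Among 116 named items, 4 had 1 bIP library standing apart from the other bIP libraries by Dixon's criterion, which chance meets in about 1 in 20 groups. The STMN2 promoter had 57.5 CPM in bIP replicate 5, and the next library had 34.6 CPM. In the same library the CHGB promoter, of a secretory granule protein, had 27.1 CPM (next 20.8 CPM), and the PPP1R17 promoter had 13.9 CPM (next 10.1 CPM). The MKI67 promoter had 10.2 CPM in bIP replicate 3, below the next value of 13.4 CPM.

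At 4 coding promoters the difference between bIP and aRG changed between the library series by edgeR's quasi-likelihood test of that change. UBAP1L had 3.71, 3.75, 3.75, 3.58 and 2.22 CPM in bIP replicates 1 to 5, against 1.38, 1.81 and 4.85 CPM in aRG replicates 1 to 3, a change of -1.98 log2 units from the first to the second series (adjusted p = 0.0209). ATP13A5 had 1.14, 1.23, 1.25, 0.442 and 0.580 CPM in bIP, against 2.81, 2.81 and 5.15 CPM in aRG, a change of -2.09 (adjusted p = 0.0304). FAM240A had 7.68, 6.99, 6.45, 19.2 and 18.9 CPM in bIP, against 11.3, 11.98 and 11.4 CPM in aRG, a change of 1.46 (adjusted p = 0.0211). WNT5A, a secreted WNT ligand, had 1.25, 1.17, 1.60, 4.46 and 5.51 CPM in bIP, against 1.38, 1.25 and 1.08 CPM in aRG, a change of 2.21 (adjusted p = 0.0286).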

How the results depend on the processing

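No named result reversed under the alternatives run. Of 115 called items, 72 kept their call in every alternative that tested them and 43 lost it under at least 1 alternative. Not every item was tested in each, since stricter filters and library subsets left some out. Leaving out 1 library at a time gave 76040 to 88608 called regions, with 36537 to 46983 higher and 34957 to 47793 lower. The ranges were 4876 to 6824 for promoter regions (1692 to 2343 higher, 2952 to 4941 lower) and 70066 to 80470 for distal regions (34373 to 44193 higher, 31442 to 42061 lower). Without bIP replicate 4 (40815 higher, 47793 lower) and without aRG replicate 2 (36537 higher, 42785 lower) the larger direction changed. It also changed with loess scaling (45288 and 50477), with no filter (42440 and 50783) and with the closest replicate pairs summed (36083 and 41543), where 10 named calls were lost (INSM1, SMOC1, JAG1, ID1, SCRT1, CHGB, GAD1, SP8, OLIG2 and CX3CR1). The median of all regions shifted by -0.123 log2 without bIP replicate 4, -0.148 without aRG replicate 2, -0.144 with no filter and -0.153 with pairs summed.

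Requiring 10 CPM in 2 libraries, which tests fewer regions, left 30863 calls (14187 higher, 16676 lower), 1213 higher and 5939 lower promoter regions, and 23298 distal regions (12809 higher, 10489 lower). The second series alone, with fewer samples, gave 49481 calls (27670 higher, 21811 lower), 2589 promoter regions (1339 higher, 1250 lower) and 46174 distal regions (25963 higher, 20211 lower). A promoter limit of 2000 bp gave 3714 higher promoter regions. Counting a region as covered only where most of it lay in a peak put 50.3% of distal regions called lower in the aRG peak set only.

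Deviations of same-numbered bIP and aRG libraries correlated at 0.244 and 0.203 for numbers 1 and 2 and at -0.224 for number 3, so not every number pairs its samples and the numbers were not taken as pairs. A replicate block in place of the series term gave 81387 calls (43020 higher, 38367 lower) and 5668 lower promoter regions. The depth limits regions near the floor of 3 counts, where calls such as that of MEF2C depended on single libraries.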
